A study of Homo sapiens with 18 samples.

Results

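The 10 genes followed here encode the machinery that writes, erases and reads N6-methyladenosine (m6A) on messenger RNA. They were taken by symbol from a table of 37096 named genes in HEK293T cells, a transformed human embryonic kidney line that is easily transfected. METTL3, METTL14, WTAP, VIRMA, RBM15, ZC3H13 and CBLL1 are the writers, FTO and ALKBH5 the erasers, and YTHDF2 the reader. Each symbol matched 1 line of the table, and all 10 passed the filter on low values. The cells had been transfected with MethionaseNLS, a methionine-degrading enzyme carrying a nuclear localisation signal, or with pLEX, its empty vector. The 6 groups of 3 libraries were methionase at 24 h with Vps34-IN1, empty vector at 24 h with Vps34-IN1, methionase at 24 h in DMSO, empty vector at 24 h in DMSO, methionase at 12 h in DMSO and empty vector at 12 h in DMSO. All 18 libraries came from wild-type HEK293T cells grown in high-glucose medium with serum. Vps34-IN1, an inhibitor of the lipid kinase VPS34 of the class 3 PI3K complex, was given at 5 µM for 12 h, and the time in the vehicle DMSO is not given in the labels. No group received an inactive methionase, so the activity of the enzyme and the expression of a foreign nuclear protein cannot be told apart. The labels do not say that replicates were separate cultures, and p-values therefore measure only the spread between these libraries, which may be technical.

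The m6A mark is placed mainly in the nucleus by a complex whose catalytic subunit METTL3 works as a heterodimer with METTL14, the partner that helps to bind RNA. WTAP, VIRMA, ZC3H13, CBLL1 (HAKAI) and RBM15 form the associated regulatory part of the complex. The methyl group comes from S-adenosylmethionine, which cells make from methionine. FTO and ALKBH5 are iron- and 2-oxoglutarate-dependent oxygenases that remove the mark, and YTHDF2 binds methylated RNA in the cytoplasm and recruits the CCR4-NOT deadenylase to it. The values below are levels of mRNA. Protein, enzyme activity and m6A itself were not measured.

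Reads assigned to genes totalled 18278586 to 20825232 per library. The methionase libraries at 24 h held 18278586 to 19031459 reads, against 20239995 to 20825232 in the empty vector libraries at 24 h. The lowest value of any of the 10 genes in any library was 407 normalised reads (reads divided by the size factor of the library), for METTL14. Of the 5 HEK293T markers, NEFL, NEFM, INA and PAX2 were present in every library and LHX1 was near 0, at 2.1 to 14.9 normalised reads. Of the 8 markers of blood, liver, endothelium and fibroblasts analysed here, CD3E, ALB, APOA1, PECAM1, CDH5, COL1A2 and DCN did not exceed 20.3 normalised reads in any library. The summed reads of the 5 HEK293T markers, mostly NEFM, ranged from 14837 to 17537 in methionase with Vps34-IN1, from 15129.6 to 17156 in empty vector with Vps34-IN1, from 14743 to 21869 in methionase in DMSO and from 10418 to 11704 in empty vector in DMSO at 24 h. COL1A1 had 403 to 672 normalised reads, and the summed reads of the 8 ranged from 468 to 594 in methionase with Vps34-IN1, from 413 to 621 in empty vector with Vps34-IN1, from 579 to 687 in methionase in DMSO and from 485 to 602 in empty vector in DMSO at 24 h. Mitochondrial ribosomal RNA took 2.18% ± 0.287 of the reads in methionase with Vps34-IN1, against 1.2% ± 0.193 in empty vector with Vps34-IN1 (SD, n = 3 each). In DMSO at 24 h it took 1.49% ± 0.536 in methionase and 0.548% ± 0.0956 in empty vector libraries, and at 12 h 0.355% ± 0.0295 and 0.240% ± 0.0453 (SD, n = 3 each). The sum of the HEK293T markers and mitochondrial ribosomal RNA thus moved with the treatments, as did the genes below, and their part in those differences was not tested. In these bulk samples, a smaller number of expressing cells and less RNA per cell cannot be told apart.

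All 10 genes were transcribed in every library, but at levels that differed widely per unit of length. Divided by the exon length of the gene in GENCODE v29, the mean levels in empty vector cells at 24 h in DMSO were highest for ALKBH5, at 1408 normalised reads per kilobase, and for YTHDF2, at 873. The catalytic subunit METTL3 followed at 306 normalised reads per kilobase and WTAP at 296. ZC3H13, CBLL1, VIRMA and RBM15 lay between 134 and 162 normalised reads per kilobase, METTL14 at 107 and FTO at 57.3. Each exon length joins the exons of all annotated transcripts, which can lower a level per kilobase relative to that of a single transcript. The length for FTO, 21379 bases, was the longest of the 10, and the order of the genes per kilobase depends on these lengths. Over the 6 groups, the highest group mean was 2.26 times the lowest for RBM15 and 1.79 times for METTL14, and only 1.24 times for ALKBH5 and 1.31 times for WTAP.

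**Figure D1:**
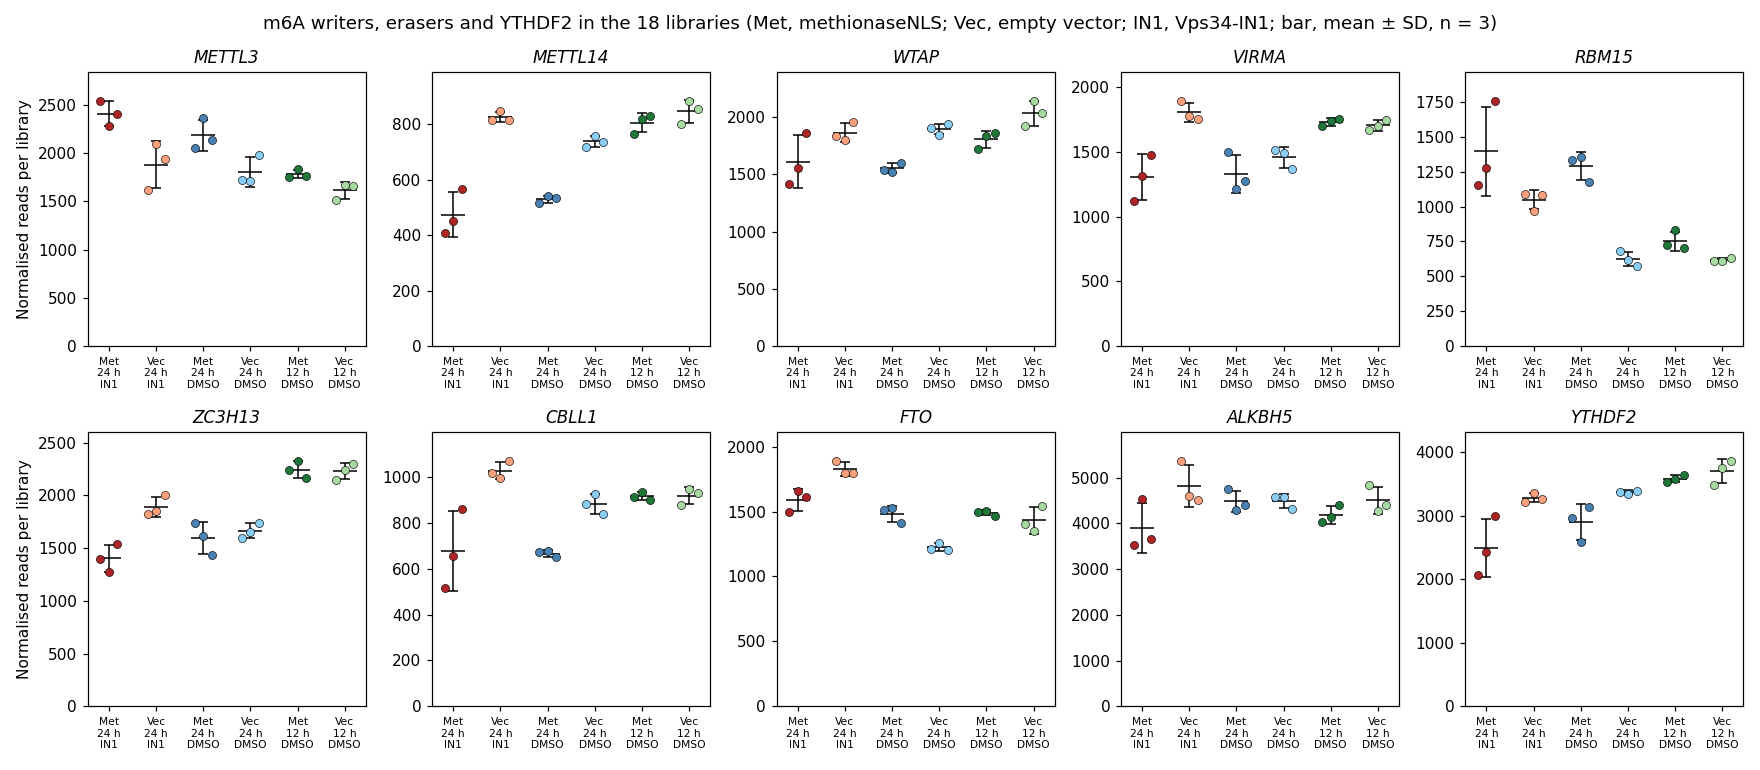
Normalised reads of each of the 10 genes in each library (points), with the group mean ± SD as bars, for the 6 groups of 3 libraries. RBM15 spans the widest range, with 1177 to 1356 normalised reads in methionase cells and 576 to 680.1 in empty vector cells at 24 h in DMSO, while ALKBH5 varies least between groups.

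Methionase at 24 h was accompanied by unequal changes across the writer complex. In DMSO, RBM15, METTL3 and FTO were higher and METTL14, CBLL1, WTAP and YTHDF2 lower than in the empty vector. VIRMA, ZC3H13 and ALKBH5 did not pass the test. The 7 of 10 called genes stand beside 39.2% of the 17755 genes tested, of which 18.1% were called higher and 21.1% lower (limma on the deposited log2 values, Benjamini-Hochberg adjusted p below 0.05). The median log2 difference of the 10 genes was -0.10, against 0.01 for all genes. With Vps34-IN1 in both arms all 10 genes were called, 2 higher and 8 lower, beside 39.5% of all genes, with 17.3% higher and 22.2% lower. Here the median of the 10 was -0.35, against 0.01 for all genes, and 9 of 10 were called without methionase Vps34-IN1 replicate 3, the library farthest from the others of its group. The genes were chosen with results of these data known, and the difference between these shares was not tested. The share of all genes whose libraries do not overlap between groups was not counted. A lack of overlap is given below only as a description of the libraries.

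At 12 h none of the 10 genes was called in methionase against empty vector cells. Limma called 0, voom on recovered reads called 0, and 2 genes, WTAP and RBM15, had an unadjusted p below 0.05, while 2.17% of all genes were called (0.681% higher and 1.49% lower). Empty vector cells had 0 of 10 higher and 2 of 10 lower at 24 h than at 12 h, beside 11.5% of all genes (4.61% higher and 6.88% lower). Methionase cells had 2 of 10 higher and 6 of 10 lower at 24 h than at 12 h, beside 39.8% of all genes (18.4% higher and 21.3% lower). The inhibitor raised 4 of the 10 genes in empty vector cells, beside 40.1% of all genes (20.2% higher and 19.9% lower). In methionase cells the inhibitor called 0 of 10 by limma and 0 by voom, with 3 at an unadjusted p below 0.05, beside 7.93% of all genes (2.95% higher and 4.98% lower). These comparisons share groups: the empty vector libraries at 24 h in DMSO serve as the control of both methionase and Vps34-IN1.

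**Figure D2:**
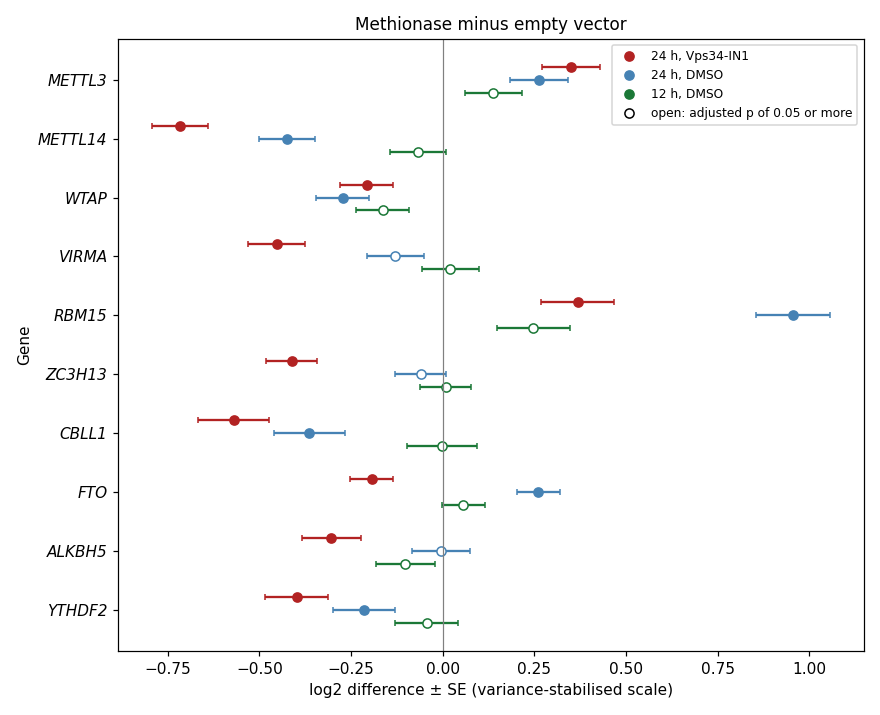
Log2 differences (variance-stabilised scale) of methionase minus empty vector for each gene, with the SE from limma, in Vps34-IN1 at 24 h, in DMSO at 24 h and in DMSO at 12 h; filled points have an adjusted p below 0.05. No point at 12 h is filled, 7 are filled in DMSO at 24 h and all 10 with Vps34-IN1.

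RBM15, an RNA-binding subunit that guides the complex to its target transcripts, showed the largest change of the 10. It had 1338, 1356 and 1177 normalised reads in the methionase libraries at 24 h in DMSO, against 680.1, 619 and 576 in the empty vector libraries. The lowest methionase library lay far above the highest empty vector library. The mean was 1290.1 ± 98.5 in methionase and 625 ± 52.3 normalised reads in empty vector cells (SD, n = 3 each), a read ratio of 2.06 (log2 difference 0.96, SE 0.10, adjusted p = 8.26e-08). Of all genes tested, 99.2% had a lower log2 difference in this comparison. This rank is on the variance-stabilised scale, where differences of genes with few reads are smaller than those of their reads. The difference stayed between 0.90 and 1.02 when any 1 library was left out.

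Vps34-IN1 alone also raised RBM15. The empty vector libraries with the inhibitor had 1093, 969 and 1081 normalised reads, all above every empty vector library in DMSO (log2 difference 0.68, SE 0.10, adjusted p = 9.58e-06). With both methionase and inhibitor the libraries had 1156, 1277 and 1756 normalised reads, and their range overlapped that of methionase in DMSO. The inhibitor difference within methionase cells was 0.09 (SE 0.10, adjusted p = 0.644) and was not called. Within inhibitor-treated cells, methionase still raised RBM15 by 0.37 on the log2 scale (SE 0.10, adjusted p = 0.00522), but without methionase Vps34-IN1 replicate 3 the difference was 0.20 and the adjusted p 0.0526. The methionase difference was smaller with the inhibitor than without it by an interaction of -0.59 (SE 0.14, adjusted p = 0.00413), called in every fit with 1 library left out.

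RBM15 was called in methionase cells at 24 h and not at 12 h, and that difference was itself called. At 12 h the methionase libraries had 724, 829 and 700.1 normalised reads, against 613, 608 and 635 in the empty vector libraries. Every methionase library was above every empty vector library, but the difference was not called (log2 difference 0.25, SE 0.10, adjusted p = 0.193); in a fit of these groups alone it was, with an adjusted p of 0.0223. At 24 h against 12 h, RBM15 rose in methionase cells by 0.72 on the log2 scale (SE 0.10, adjusted p = 5.13e-06), whereas the empty vector difference was 0.01 and not called (adjusted p = 0.957). The interaction of methionase with time was 0.71 (SE 0.14, adjusted p = 0.00197).

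The core heterodimer moved in opposite directions. METTL14, the RNA-binding partner, had 514, 540.2 and 532 normalised reads in methionase cells at 24 h in DMSO, against 718, 758 and 738 in empty vector cells. METTL3, the catalytic subunit, had 2048, 2358 and 2138 normalised reads in methionase, against 1725, 1709 and 1983 in empty vector cells. Neither gene's libraries overlapped between the groups. METTL14 fell to 529 ± 13.2 normalised reads in methionase cells, against 738 ± 20.2 in empty vector cells (SD, n = 3 each; log2 difference -0.42, SE 0.08, adjusted p = 0.000101). METTL3 rose to 2182 ± 159.7 in methionase cells, against 1806 ± 153 in empty vector cells (SD, n = 3 each; log2 difference 0.26, SE 0.08, adjusted p = 0.00996). The METTL3 call was lost without empty vector replicate 1 (adjusted p = 0.0501), empty vector replicate 2 (0.0537) or methionase replicate 2 (0.0665), whereas that of METTL14 held in each such fit.

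With the inhibitor in both arms the core pair again moved in opposite directions. METTL14 had 407, 449.9 and 566 normalised reads in methionase with Vps34-IN1, against 814, 847 and 816 in empty vector with Vps34-IN1, the largest decrease of the 10 genes (log2 difference -0.72, SE 0.08, adjusted p = 1.30e-07). Only 0.9% of all genes tested had a lower log2 difference in that comparison, on the same variance-stabilised scale. METTL3 had 2536, 2281 and 2404 normalised reads in methionase with Vps34-IN1, against 1612, 2092 and 1934 in empty vector with Vps34-IN1 (log2 difference 0.35, SE 0.08, adjusted p = 0.00104). Neither gene overlapped between these groups, and both calls held whichever library was left out. Neither gene passed the test for the inhibitor: for METTL14 the difference was 0.15 (SE 0.08, adjusted p = 0.128) in empty vector cells and -0.15 (SE 0.08, adjusted p = 0.257) in methionase cells. For METTL3 it was 0.05 in empty vector cells (adjusted p = 0.643) and 0.14 in methionase cells (adjusted p = 0.3). METTL14 in empty vector cells was called higher with the inhibitor under equal library medians (adjusted p = 0.0457) and in a fit of these groups alone (0.0423). In methionase cells it was called lower with the inhibitor when methionase Vps34-IN1 replicate 3 was left out (log2 difference -0.26, adjusted p = 0.0128).

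Because the proteins work as a pair, the balance of their mRNAs was followed in each library. METTL3 had 6.23, 5.07 and 4.25 reads per METTL14 read in the methionase libraries with Vps34-IN1, against 1.98, 2.47 and 2.37 in the empty vector libraries with Vps34-IN1. In DMSO at 24 h the ratios were 3.98, 4.37 and 4.02 in methionase and 2.40, 2.25 and 2.69 in empty vector libraries. Every methionase library at 24 h was above every empty vector library. Within DMSO and within Vps34-IN1 this follows from the separation of both genes given above and is no further result. At 12 h the ratios were 2.29, 2.24 and 2.12 in methionase and 1.89, 1.89 and 1.94 in empty vector libraries, also without overlap. The mean ratio was 5.18 ± 0.996 in methionase and 2.27 ± 0.259 in empty vector cells with Vps34-IN1, 4.12 ± 0.212 and 2.45 ± 0.22 in DMSO at 24 h, and 2.22 ± 0.086 and 1.91 ± 0.027 at 12 h (SD, n = 3 each). These ratios are of reads, not per length, and no test was made on them beyond those of each gene.

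**Figure D3:**
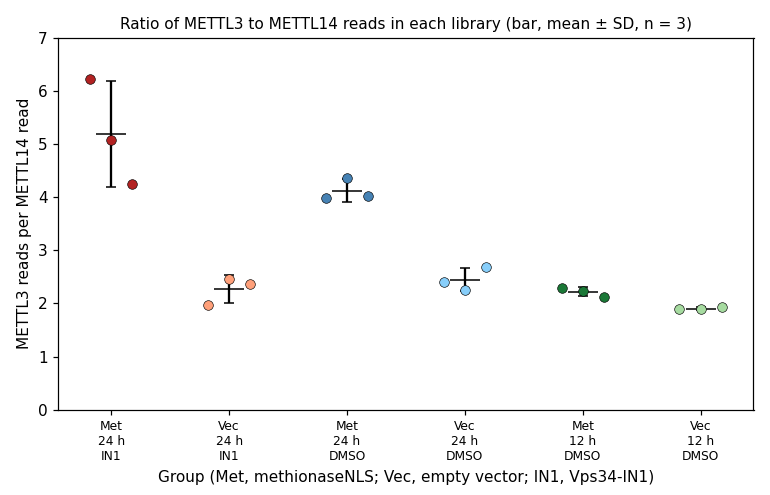
Ratio of METTL3 to METTL14 reads in each library (points) with the mean and SD of the 3 libraries as bars, for the 6 groups. The 6 methionase libraries at 24 h lie between 3.98 and 6.23 METTL3 reads per METTL14 read, and the other 12 libraries between 1.89 and 2.69.

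At 24 h against 12 h, METTL14 fell in methionase cells by 0.54 on the log2 scale (SE 0.08, adjusted p = 6.48e-06) and METTL3 rose by 0.28 (SE 0.08, adjusted p = 0.00685). In empty vector cells neither was called, at -0.18 for METTL14 (adjusted p = 0.127) and 0.15 for METTL3 (adjusted p = 0.214), although METTL14 was in a fit of these groups alone (adjusted p = 0.0319). At 12 h METTL14 had 765, 819 and 829.9 normalised reads in methionase and 802, 883 and 856 in empty vector cells, and the ranges overlapped. METTL3 at 12 h had 1753, 1835 and 1762 in methionase and 1515, 1668 and 1659 in empty vector cells. Its ranges did not overlap, but the difference was not called (log2 difference 0.14, SE 0.08, adjusted p = 0.372). For METTL3 the interaction of methionase with time was not called (0.12, SE 0.11, adjusted p = 0.524). METTL14 carried an interaction of methionase with time of -0.36 (SE 0.11, adjusted p = 0.0317). Of the 12 fits that left out 1 library, 8 did not make this call, with adjusted p of 0.0515 to 0.0860. The libraries left out in those 8 were replicates 1 and 3 of empty vector at 12 h, 2 and 3 of methionase at 12 h, all 3 of empty vector at 24 h, and 1 of methionase at 24 h. It was also not made without the filter (adjusted p = 0.0647) or with equal library medians (0.0686).

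The windows upstream of 3 genes are shown because RBM15 had the largest rise and METTL14 the largest decrease of the 10 in methionase cells in DMSO, and METTL3 is the partner of METTL14. They are the 250 bases before the RefSeq start in GRCh38.p14, with motif matches in capitals, at chr1:110339127-110339376 on the plus strand for RBM15, chr4:118685142-118685391 on the plus strand for METTL14 and chr14:21511341-21511590 on the minus strand for METTL3. The RBM15 window lies within the gene as GENCODE v29 gives it, since that annotation begins farther upstream. The last bases of the METTL14 and METTL3 windows also lie within these genes, which GENCODE v29 begins at 118685368 and 21511375.
RBM15: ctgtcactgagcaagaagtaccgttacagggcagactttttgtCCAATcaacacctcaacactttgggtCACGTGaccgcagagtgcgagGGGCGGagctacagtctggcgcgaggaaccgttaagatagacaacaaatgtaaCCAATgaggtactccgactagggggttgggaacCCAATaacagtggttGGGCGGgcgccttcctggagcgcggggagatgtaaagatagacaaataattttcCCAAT
METTL14: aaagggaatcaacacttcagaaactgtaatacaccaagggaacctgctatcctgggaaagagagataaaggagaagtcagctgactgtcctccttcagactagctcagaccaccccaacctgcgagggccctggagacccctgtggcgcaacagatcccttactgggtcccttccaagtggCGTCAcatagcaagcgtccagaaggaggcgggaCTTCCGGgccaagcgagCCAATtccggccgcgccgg
METTL3: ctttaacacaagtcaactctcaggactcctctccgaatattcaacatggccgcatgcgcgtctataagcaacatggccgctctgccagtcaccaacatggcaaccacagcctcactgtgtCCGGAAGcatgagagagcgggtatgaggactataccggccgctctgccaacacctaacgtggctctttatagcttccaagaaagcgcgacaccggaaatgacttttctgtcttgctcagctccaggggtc
On both strands, 7 motifs were searched: CCAAT of the box bound by nuclear factor Y, GGGCGG of the GC box, CACGTG of the E-box, TGACG of the cyclic AMP response element, TGANTCA of the AP-1 site, TGATGNAA of the amino acid response element and CCGGAAG of the ETS site. The RBM15 window held 4 CCAAT, 2 GGGCGG and 1 CACGTG, with no overlap between matches. METTL14 held 1 CCAAT, 1 TGACG on the minus strand and 1 CCGGAAG on the minus strand, and METTL3 held 1 CCGGAAG. Of the 34788 distinct promoter windows searched, 32% held CCAAT, 42.6% GGGCGG, 6.31% CACGTG, 21.2% TGACG, 6.59% TGANTCA, 3.16% TGATGNAA and 8.5% CCGGAAG. Only 0.877% held 4 or more CCAAT, a count made after the RBM15 window had been seen. A match to these letters is a description of the window and shows no bound factor.

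The other subunits of the complex were lower or not called in methionase cells. CBLL1, an E3 ubiquitin ligase-like subunit, had 675, 676 and 649.8 normalised reads in methionase at 24 h in DMSO, against 882, 925 and 839.9 in empty vector cells, without overlap (log2 difference -0.36, SE 0.10, adjusted p = 0.00418). WTAP, the adaptor that holds the heterodimer in nuclear speckles, had 1543, 1522 and 1603 normalised reads in methionase, against 1907, 1848 and 1941 in empty vector cells, again without overlap (log2 difference -0.27, SE 0.07, adjusted p = 0.00407). Both calls held in every fit with 1 library left out. VIRMA, the large scaffold subunit, had 1498, 1213 and 1278 normalised reads in methionase, against 1512, 1496 and 1369 in empty vector cells, and the ranges overlapped (log2 difference -0.13, SE 0.08, adjusted p = 0.195). VIRMA was called lower when methionase replicate 1 was left out (log2 difference -0.21, adjusted p = 0.0383). ZC3H13, which helps to keep the complex in the nucleus, also overlapped, with 1739, 1612 and 1436 normalised reads in methionase and 1596, 1656 and 1737 in empty vector cells (log2 difference -0.06, SE 0.07, adjusted p = 0.524).

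With Vps34-IN1 in both arms all 4 were called lower in methionase cells. CBLL1 had 516, 657 and 862 normalised reads in methionase with Vps34-IN1, against 1019, 997 and 1069 in empty vector with Vps34-IN1 (log2 difference -0.57, SE 0.10, adjusted p = 5.55e-05). The log2 SD of CBLL1 was 0.329 in these methionase and 0.047 in these empty vector libraries (n = 3 each). Its SE rests on 1 spread pooled over the 6 groups. VIRMA had 1124, 1316 and 1478 in methionase, against 1893, 1776 and 1758 in empty vector cells (log2 difference -0.45, SE 0.08, adjusted p = 6.92e-05). ZC3H13 had 1396, 1277 and 1536 in methionase, against 1823, 1852 and 1999.5 in empty vector cells (log2 difference -0.41, SE 0.07, adjusted p = 5.64e-05). In these 3 genes no methionase library reached the lowest empty vector library, and the calls held whichever library was left out. The share of all genes separated in this way was not counted. WTAP had 1414, 1559.7 and 1867 in methionase, against 1836, 1799.9 and 1961 in empty vector cells, with overlap (log2 difference -0.21, SE 0.07, adjusted p = 0.025). The WTAP call was lost without empty vector Vps34-IN1 replicate 3 (adjusted p = 0.105), methionase Vps34-IN1 replicate 1 (0.198) or replicate 2 (0.0705), and under quantile normalization, where the difference was -0.08 (adjusted p = 0.424). It was also lost without the filter (adjusted p = 0.0528), with equal library medians (0.0578) and in a fit of these groups alone (0.0966).

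The inhibitor alone raised the scaffold in empty vector cells. VIRMA had a mean of 1809 ± 73.2 normalised reads with Vps34-IN1 and 1459 ± 78.6 in DMSO (SD, n = 3 each), without overlap (log2 difference 0.30, SE 0.08, adjusted p = 0.00393). ZC3H13 had 1892 ± 94.5 with Vps34-IN1 and 1663 ± 70.8 in DMSO (SD, n = 3 each; log2 difference 0.18, SE 0.07, adjusted p = 0.0459). This small ZC3H13 difference was lost without 1 of 4 libraries, empty vector DMSO replicate 1 or 2 or empty vector Vps34-IN1 replicate 2 or 3 (adjusted p of 0.0679 to 0.183), and with the replicate number as a block (adjusted p = 0.056). It was also lost without the filter (adjusted p = 0.0925), under quantile normalization (0.219) and without the variance trend (0.0693). CBLL1 (0.20, adjusted p = 0.0963) and WTAP (-0.02, adjusted p = 0.816) were not called. CBLL1 was called higher with equal library medians (adjusted p = 0.0423) and in a fit of these groups alone (0.0102). In methionase cells, the inhibitor differences were -0.03 for VIRMA, -0.17 for ZC3H13, 0.00 for CBLL1 and 0.04 for WTAP, and none was called. ZC3H13 was called lower there without methionase DMSO replicate 3 (adjusted p = 0.0495) or methionase Vps34-IN1 replicate 3 (adjusted p = 0.0361).

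The difference between these effects was itself tested. ZC3H13 had an interaction of methionase with the inhibitor of -0.35 (SE 0.10, adjusted p = 0.012), called in every fit with 1 library left out. For VIRMA it was -0.32 (SE 0.11, adjusted p = 0.0379), and this call was lost in 5 of 12 fits with 1 library left out (adjusted p of 0.0533 to 0.129): those without empty vector DMSO replicate 3, methionase DMSO replicate 1, empty vector Vps34-IN1 replicate 1 or 2, or methionase Vps34-IN1 replicate 1. It was also lost without the filter (adjusted p = 0.0845), under quantile normalization (0.0824), without the variance trend (0.0606) and in a fit of these 4 groups alone (0.0845). For METTL14 (-0.29, adjusted p = 0.0538) and CBLL1 (-0.21, adjusted p = 0.301) the interaction was not called with all libraries. That of METTL14 was called under the stricter filter (adjusted p = 0.0476), with equal library medians (0.0489) and with the replicate number as a block (0.0425). Both were called without methionase Vps34-IN1 replicate 3, METTL14 at -0.41 (adjusted p = 0.00119) and CBLL1 at -0.38 (adjusted p = 0.00688).

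ZC3H13 was lower at 24 h than at 12 h in both arms. It had 1596, 1656 and 1737 normalised reads at 24 h and 2144, 2245 and 2301 at 12 h in empty vector cells (log2 difference -0.41, SE 0.07, adjusted p = 0.000657). In methionase cells it had 1739, 1612 and 1436 at 24 h and 2245, 2321 and 2166 at 12 h (log2 difference -0.47, SE 0.07, adjusted p = 1.00e-05). Neither pair of groups overlapped, and the interaction of methionase with time was not called for it (-0.07, adjusted p = 0.718). CBLL1 fell by 0.41 (adjusted p = 0.00142) and VIRMA by 0.37 (adjusted p = 0.000633) on the log2 scale at 24 h against 12 h in methionase cells. In empty vector cells neither passed the test over time, at -0.05 for CBLL1 (adjusted p = 0.773) and -0.22 for VIRMA (adjusted p = 0.0736). VIRMA was called lower there with equal library medians (adjusted p = 0.0456) and in a fit of these groups alone (0.01). The interaction of methionase with time was not called for CBLL1 (-0.36, adjusted p = 0.0875) or VIRMA (-0.15, adjusted p = 0.419). That of CBLL1 was called in a fit of only the groups compared (adjusted p = 0.00369). WTAP in methionase cells was lower at 24 h by 0.20 (adjusted p = 0.027). Leaving out replicate 2 or 3 at 12 h or replicate 1 or 2 at 24 h ended that call (adjusted p of 0.0592 to 0.0908), as did no filter (0.0572), quantile normalization (0.081) and equal library medians (0.0611).

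Of the 2 erasers, FTO moved with both treatments and ALKBH5 was called in 1 comparison. FTO, which acts on m6A and on m6Am next to the cap, had 1510.0, 1526 and 1414 normalised reads in methionase at 24 h in DMSO, against 1210.0, 1259 and 1204 in empty vector cells, without overlap (log2 difference 0.26, SE 0.06, adjusted p = 0.0011). The inhibitor raised FTO in empty vector cells, to 1886, 1801 and 1797 normalised reads, against 1210.0, 1259 and 1204 in DMSO (log2 difference 0.55, SE 0.06, adjusted p = 1.21e-07). These are the highest FTO values of any group. With Vps34-IN1 in both arms, methionase libraries had 1496, 1659 and 1609 normalised reads, below each empty vector library (log2 difference -0.19, SE 0.06, adjusted p = 0.0111). The methionase difference in FTO was thus positive in DMSO and negative with the inhibitor, and the interaction was -0.45 (SE 0.08, adjusted p = 0.000382), called in every fit with 1 library left out. The negative difference itself was lost without methionase Vps34-IN1 replicate 1 (adjusted p = 0.0655) and under quantile normalization, at -0.06 (adjusted p = 0.384), and in a fit of these groups alone (adjusted p = 0.0593).

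In methionase cells the inhibitor difference in FTO was 0.09 (SE 0.06, adjusted p = 0.365) and was not called. Over time FTO was lower at 24 h than at 12 h in empty vector cells, with 1210.0, 1259 and 1204 normalised reads at 24 h, against 1402, 1349 and 1546 at 12 h (log2 difference -0.21, SE 0.06, adjusted p = 0.022). This call was lost when replicate 3 of the 12 h group was left out (adjusted p = 0.151), and likewise replicate 1 (0.0887) or 3 (0.0735) of the 24 h group, and under quantile normalization (0.0669). In methionase cells the time difference was -0.01 and not called (adjusted p = 0.94). Mean FTO was thus 1490 normalised reads at 12 h and 1483 at 24 h in methionase cells. In empty vector cells it was 1432 and 1224. The interaction of methionase with time was not called for FTO (0.20, SE 0.08, adjusted p = 0.117). With equal library medians it was called (0.26, adjusted p = 0.0484).

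ALKBH5, a nuclear demethylase, had 4743, 4292 and 4409 normalised reads in methionase at 24 h in DMSO, against 4569, 4584 and 4322 in empty vector cells. The ranges overlapped and the difference was not called (log2 difference 0.00, SE 0.08, adjusted p = 0.975). With Vps34-IN1, methionase libraries had 3533, 4523 and 3648 normalised reads, against 5351, 4598 and 4512 in empty vector libraries. This was the only comparison in which ALKBH5 was called (log2 difference -0.30, SE 0.08, adjusted p = 0.00402), although the ranges overlapped by 1 methionase library, replicate 2. The call held in every fit with 1 library left out. Its interaction of methionase with the inhibitor was not called (-0.30, adjusted p = 0.0598), but was without methionase Vps34-IN1 replicate 2 (adjusted p = 0.00513) or empty vector Vps34-IN1 replicate 3 (0.0471). The inhibitor difference in methionase cells, -0.20, was likewise called only without methionase Vps34-IN1 replicate 2 (adjusted p = 0.0147, against 0.119 with all libraries).

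**Figure D4:**
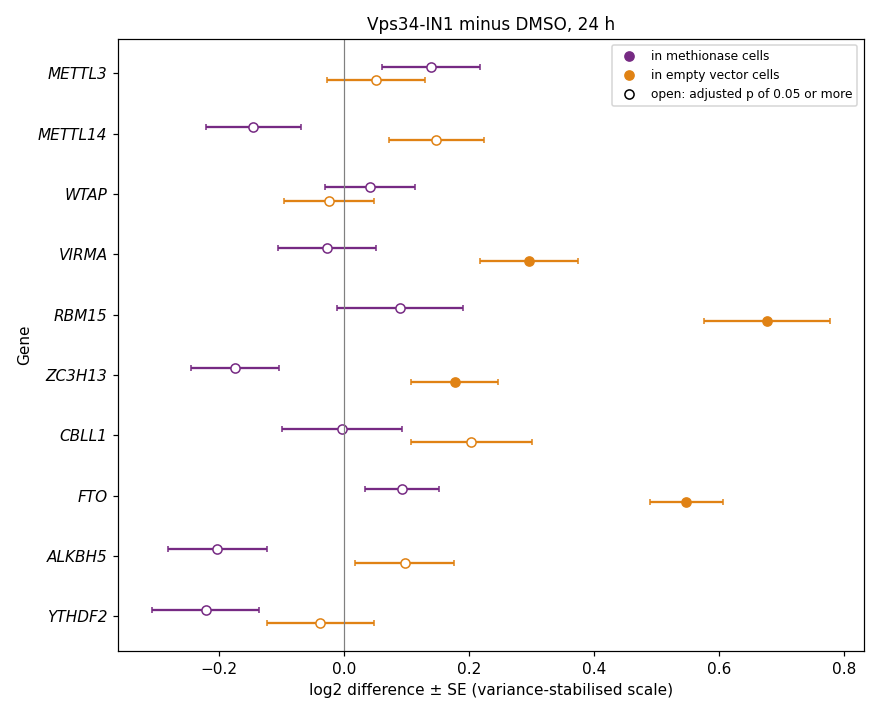
Log2 differences (variance-stabilised scale) of Vps34-IN1 minus DMSO at 24 h for each gene, with the SE from limma, in methionase cells and in empty vector cells; filled points have an adjusted p below 0.05. The 4 filled points are RBM15 at 0.68, FTO at 0.55, VIRMA at 0.30 and ZC3H13 at 0.18, all in empty vector cells.

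The reader YTHDF2 was lower in methionase cells at 24 h. In DMSO it had 2968, 2587 and 3142 normalised reads in methionase, against 3374, 3337 and 3392 in empty vector cells, without overlap but with a wide spread among the methionase libraries. The call lay at the threshold (log2 difference -0.21, SE 0.09, adjusted p = 0.0496) and was lost without any 1 of the empty vector libraries or without methionase replicate 1 or 2, with adjusted p of 0.0624 to 0.259. Without methionase replicate 2 the difference was -0.14. The call was also lost without the filter on low values (adjusted p = 0.108), under quantile normalization (0.0584), with equal library medians (0.107) and without the variance trend (0.0751). With Vps34-IN1 in both arms it had 2072, 2421 and 2985 normalised reads in methionase, against 3221, 3359 and 3254 in empty vector cells (log2 difference -0.40, SE 0.09, adjusted p = 0.000714). There the groups did not overlap and the call held whichever library was left out. The inhibitor difference was -0.04 in empty vector cells (adjusted p = 0.758) and -0.22 in methionase cells (adjusted p = 0.113), neither called. In methionase cells it was called without methionase DMSO replicate 2 (adjusted p = 0.0444) or methionase Vps34-IN1 replicate 3 (0.00378). The interaction of methionase with the inhibitor was not called with all libraries (-0.18, SE 0.12, adjusted p = 0.303). Of 12 fits with 1 library left out, 11 did not call it. The exception was the fit without methionase Vps34-IN1 replicate 3 (-0.32, adjusted p = 0.0191).

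At 24 h against 12 h, YTHDF2 fell in methionase cells by 0.30 on the log2 scale (SE 0.09, adjusted p = 0.00719). Without methionase 24 h replicate 2 the adjusted p was 0.0591. In empty vector cells the time difference was -0.13 and not called (adjusted p = 0.35). The interaction of methionase with time was not called for YTHDF2 (-0.17, SE 0.12, adjusted p = 0.402).

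The tests of the differences between effects thus called 4 of the 10 genes for methionase with Vps34-IN1, all negative, beside 21.8% of all genes (9.92% higher and 11.9% lower), and 2 for methionase with time, 1 in each direction, beside 11.7% (5.33% higher and 6.33% lower). Without methionase Vps34-IN1 replicate 3, 7 genes were called for the interaction with the inhibitor, again all negative. In that fit 4447 of all genes were called, against 3878 with all libraries. METTL14, CBLL1 and YTHDF2, which that fit added, were each not called in the other 11 of 12 fits with 1 library left out. The VIRMA call was lost in 5 of the 12.

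Some of these genes overlap others in GENCODE v29 (GRCh38), and how strand was handled in counting is not stated, so reads of overlapping genes may not have been told apart. METTL3 (chr14:21498133-21511375, minus strand) overlaps TOX4, WTAP (chr6:159725585-159756319, plus strand) overlaps SOD2, and FTO (chr16:53701692-54158512, plus strand) overlaps RPGRIP1L, each on the opposite strand. TOX4 had 1428 to 1883 normalised reads per library and SOD2 2637 to 3788, more than WTAP itself, while RPGRIP1L had 282 to 525. RBM15 (chr1:110338506-110346681, plus strand) overlaps its antisense RNA RBM15-AS1, which had 17.5 to 44.9 normalised reads per library. CBLL1, VIRMA, ALKBH5 and FTO also overlap antisense genes with clone names, which have no line under those names. A line named CBLL1-AS1, whose position was not checked, had 51.0 to 104.7 normalised reads per library, against 516 to 1069 for CBLL1. METTL14 (chr4:118685368-118715433, plus strand) overlaps no other annotated gene. A processed copy can share reads with its parent gene, but YTHDF2P1 had at most 11.3 normalised reads and WTAPP1 and FTOP1 at most 3.7.

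Lists of related genes were counted beside the share of all genes called in the same comparison, which for methionase was 39.2% in DMSO (18.1% higher and 21.1% lower) and 39.5% with Vps34-IN1 (17.3% higher and 22.2% lower), with an all-gene median log2 difference of 0.01 in both. The lists hold 7 to 11 tested genes each, and no test sets them apart from other genes. Of METTL16, METTL5, TRMT112, ZCCHC4, PCIF1, METTL4 and RBM15B, 4 rose and 1 fell in methionase cells at 24 h in DMSO, with a median log2 difference of 0.23. RBM15B, the paralogue of RBM15, fell where RBM15 rose, at -0.43 (SE 0.07, adjusted p = 1.44e-05). METTL5, which with its cofactor TRMT112 methylates 18S ribosomal RNA, rose by 0.49 on the log2 scale (adjusted p = 5.45e-06). With Vps34-IN1 in both arms 1 rose and 3 fell, with a median of -0.02, so that 5 of 7 were called in DMSO and 4 of 7 with the inhibitor.

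METTL16 methylates U6 small nuclear RNA and the mRNA of MAT2A, whose product makes S-adenosylmethionine. It had 1449.9, 1668 and 1544 normalised reads in methionase with Vps34-IN1, against 2197, 2039 and 2086 in empty vector with Vps34-IN1 (-0.42 on the log2 scale, adjusted p = 4.01e-05). In DMSO it had 1897, 1833 and 1737 in methionase, against 1430.4, 1674 and 1486 in empty vector cells (0.24, adjusted p = 0.00731, and 0.0540 without empty vector replicate 1). The sign of the methionase difference thus turned with the inhibitor, as it did for FTO, and the interaction was -0.66 (SE 0.10, adjusted p = 3.68e-05). The inhibitor alone raised it in empty vector cells by 0.44 (adjusted p = 1.88e-05).

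MAT2A had 4257, 3283 and 3691 normalised reads in methionase with Vps34-IN1, against 1708, 2807 and 2235 in empty vector with Vps34-IN1 (log2 difference 0.73, adjusted p = 0.00153). In DMSO the libraries overlapped, with 2946, 4811 and 5309 in methionase and 5167, 4844 and 6405 in empty vector cells (-0.36, adjusted p = 0.103, and 0.0293 without methionase replicate 3). The inhibitor alone lowered MAT2A in empty vector cells, where each of the 3 libraries with Vps34-IN1 lay below each of the 3 in DMSO (log2 difference -1.27, adjusted p = 2.83e-06). AHCY, which clears the product that inhibits methyltransferases, differed by 0.17 between methionase and empty vector cells in DMSO (adjusted p = 0.0327), a call lost without empty vector replicate 1 or 3 or methionase replicate 1 or 3 (adjusted p of 0.0647 to 0.136). Of the 9 tested genes of 11 listed for the supply of S-adenosylmethionine, 3 rose and 4 fell in DMSO and 2 rose and 5 fell with Vps34-IN1, beside 39.2% and 39.5% of all genes called in either direction. Their median log2 differences were -0.32 in DMSO and -0.25 with Vps34-IN1, against 0.01 for all genes in both. MTRR, which reactivates methionine synthase, fell in both, by 0.44 (adjusted p = 8.54e-06) and 0.68 (adjusted p = 2.83e-08) on the log2 scale.

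Among 11 other readers tested, of 12 listed, 2 rose and 5 fell in methionase cells in DMSO, and 1 rose and 5 fell with Vps34-IN1, beside 18.1% higher and 21.1% lower of all genes in DMSO and 17.3% and 22.2% with Vps34-IN1. YTHDF1, a paralogue of YTHDF2, fell by 0.71 in DMSO (adjusted p = 1.68e-08) and 0.84 with Vps34-IN1 (adjusted p = 2.47e-09) on the log2 scale. IGF2BP3, a reader that stabilises its target mRNAs, fell by 0.48 in DMSO (adjusted p = 6.02e-06). The CCR4-NOT complex, which YTHDF2 recruits, had 0 of 11 subunits higher and 4 lower in DMSO, and 0 higher and 8 lower with Vps34-IN1, with medians of -0.16 and -0.38. The 4 of 11 called in DMSO is near the 39.2% of all genes called, and became 2 without empty vector replicate 1 and 2 with equal library medians. The 8 of 11 called with Vps34-IN1 stands beside 39.5% of all genes, and stayed at 8 in each fit with 1 library left out. CNOT6, a catalytic deadenylase subunit, fell by 0.28 in DMSO (adjusted p = 0.000653) and by 0.72 with Vps34-IN1 (adjusted p = 5.46e-09).

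The exon junction complex and its partners, which keep m6A away from exon junctions, had 1 of 10 genes higher and 5 lower in methionase cells in DMSO and 2 higher and 5 lower with Vps34-IN1, beside 39.2% and 39.5% of all genes called (21.1% and 22.2% lower). RBM8A, one of its core proteins, fell by 0.58 in DMSO (adjusted p = 2.04e-08) and 0.30 with Vps34-IN1 on the log2 scale (adjusted p = 0.000135). It was also the 1 gene of these lists called at 12 h, at -0.27 (SE 0.06, adjusted p = 0.0121), which did not hold when replicate 3 of the empty vector (adjusted p = 0.0804) or replicate 2 of methionase (adjusted p = 0.0902) was left out. EIF4A3, the core helicase of the complex, fell by 0.48 in DMSO (adjusted p = 1.12e-05).

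The inhibitor alone, in empty vector cells, called 40.1% of all genes (20.2% higher and 19.9% lower), and members of each list in both directions. It raised 3 and lowered 1 of 7 other writers, and raised 2 and lowered 3 of 11 other readers, a share near that of all genes. The 4 called writers became 2 without empty vector DMSO replicate 3, and the 5 called readers became 3 without empty vector DMSO replicate 1 and 2 without empty vector Vps34-IN1 replicate 1. Of the CCR4-NOT subunits 1 of 11 rose and 1 fell, of the exon junction genes 2 of 10 rose and 4 fell, and of the genes of S-adenosylmethionine supply 3 of 9 rose and 3 fell. EIF4A3 (-0.42, adjusted p = 5.72e-05), RBM8A (-0.32, adjusted p = 5.05e-05) and IGF2BP3 (-0.41, adjusted p = 3.42e-05), named above for methionase, were also lower with the inhibitor alone. The 2 called CCR4-NOT subunits became 1 without empty vector DMSO replicate 2 or 3 or empty vector Vps34-IN1 replicate 1 or 3. These lists were chosen with results of these data known.

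Over the log2 values of the 18 libraries, the gene whose profile was most like that of RBM15 was CACNB4, with a Pearson r of 0.98 among 16071 named candidates. For METTL14 it was PALB2, with an r of 0.986, and for METTL3 DDX12P, with an r of 0.976. FTO was most like CCSER2 at 0.95 and YTHDF2 most like UBQLN2 at 0.959. The remaining values lay between 0.912, for ALKBH5 and SLC39A1, and 0.966, for CBLL1 and THUMPD3. The 18 points of each correlation share 6 groups, libraries and depth, and the values are given as a description.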

How the data were processed

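Poly-A RNA was sequenced with a dUTP strand-specific method on a DNBSEQ-G400 instrument, per the labels' protocols, and all 18 libraries carry 1 batch label. STAR 2.7.10b, the hg38 build, DESeq2, limma and featureCounts are named in the submitters' processing notes, without the role of each. The authors deposited 1 table of variance-stabilised log2 values, with a lowest value of 5.45. Of its 37097 lines, 1 has no gene name; it was left out and accounts for at most 0.0022% of the reads of a library. For the annotation, the strand setting and any earlier filter, nothing is stated (not given in the sources used here).

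The transformation was undone to recover reads, which gave whole reads, to within 0.01, for 100% of the values. Size factors ranged from 0.892 to 1.098, and normalised reads are reads divided by them. No pair of replicates was alike enough to be 1 library deposited again (chi-square per gene of 2.52 or more). Genes averaging at least 0.5 above the lowest value, 17755 of them, entered a limma fit (version 3.58.1, under R 4.3.3) of 6 group means over all 18 libraries, with an empirical Bayes variance trend and Benjamini-Hochberg adjustment within each comparison (called below 0.05). Because of the transformation, a log2 difference of a gene with few reads is smaller than that of its reads. No correction was made over the 9 comparisons. Each SE rests on 1 spread per gene, shared by the 6 groups. It understates the spread of the more variable groups and overstates that of the others. The procedure was run on simulated reads with known changes in a small part of the genes of 1 group. Those data lack the broad changes seen here, so that check does not cover them.

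The 10 genes, the gene lists and the markers were chosen with earlier results of these data known. All 10 genes were named in every comparison. From the lists, candidates for naming were the 2 called genes with the lowest adjusted p in each direction of a comparison, with MAT2A, AHCY and METTL16 always, and 1 most alike gene per member. YTHDC1, GNMT, NNMT, PTPRC and HBB were not analysed here, and 1 marker is not reported here. Promoter sequences are from RefSeq; windows for 9 of the 10 genes were used. Alternatives were other filters, quantile normalization, equal library medians, no variance trend, only the groups compared, a replicate block, limma voom on recovered reads, and each library left out in turn. The same alternatives for the list genes were added after seeing the data.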

Additional observations from a re-analysis of the deposited data

Results flagged for a closer look

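For 4 genes the difference between methionase and empty vector cells at 24 h was not the same with Vps34-IN1 as in DMSO, by the limma interaction term (adjusted over all genes). The interaction was -0.59 for RBM15 (adjusted p = 0.00413), -0.45 for FTO (adjusted p = 0.000382), -0.35 for ZC3H13 (adjusted p = 0.012) and -0.32 for VIRMA (adjusted p = 0.0379). The methionase difference with Vps34-IN1 and in DMSO was 0.37 and 0.96 for RBM15, -0.19 and 0.26 for FTO, -0.41 and -0.06 for ZC3H13, and -0.45 and -0.13 for VIRMA. The VIRMA call was lost in 5 of 12 fits with 1 library left out and under 4 other settings.

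For 2 genes the methionase difference in DMSO was not the same at 24 h as at 12 h. The interaction was 0.71 for RBM15 (adjusted p = 0.00197) and -0.36 for METTL14 (adjusted p = 0.0317). The methionase difference at 24 h and at 12 h was 0.96 and 0.25 for RBM15, and -0.42 and -0.07 for METTL14. The METTL14 call was lost in 8 of 12 fits with 1 library left out and under 2 other settings.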

How the results depend on the processing

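Of the 90 values of 10 genes in 9 comparisons, 37 were called, 12 higher and 25 lower. Of these, 26 stayed called under all alternatives and in all fits with 1 library left out, and 0 of the calls changed sign. Voom on recovered reads changed 0 calls. Other settings lost or gained calls as follows: no filter lost 6, quantile normalization lost 7, equal library medians lost 4 and gained 5, no variance trend lost 3, only the groups compared lost 3 and gained 6, and the stricter filter gained 1. Among fits with 1 library left out, 38 values lost and 12 gained a call of 660; the cause was not tested.

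The number of the 10 genes called moved as follows. With only the groups compared, it became 1 for methionase at 12 h (0 otherwise), 8 for methionase with Vps34-IN1 (10), 6 for the inhibitor in empty vector (4), 4 for time in empty vector (2), 3 for methionase with the inhibitor (4) and 3 for methionase with time (2). Under quantile normalization it became 6 for methionase in DMSO at 24 h (7), 8 for methionase with Vps34-IN1, 3 for the inhibitor in empty vector, 1 for time in empty vector, 7 for time in methionase (8) and 3 for methionase with the inhibitor. Equal library medians gave 6, 9, 6, 3, 7 and 5 for these comparisons in that order. Without the filter it became 1 for methionase with time, and moved the other counts by at most 1, as did the stricter filter, no variance trend and the replicate block. With 1 library left out, the counts ranged from 5 to 7 (methionase in DMSO at 24 h), 8 to 10 (methionase with Vps34-IN1), 3 to 4 (inhibitor in empty vector), 0 to 3 (inhibitor in methionase), 1 to 2 (time in empty vector), 6 to 8 (time in methionase), 3 to 7 (methionase with inhibitor) and 1 to 2 (methionase with time).

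Same-numbered replicates are not shown to be paired: the correlation of their deviations ranged from -0.31 to 0.35 over 15 pairs of groups, 0 of which had all values above 0.1, and 6 of 18 libraries were most like their own number. The replicate block lost 1 call, ZC3H13 for the inhibitor in empty vector cells (adjusted p = 0.0560), and gained 1, METTL14 for methionase with the inhibitor (adjusted p = 0.0425). It left the number of genes called at 7 for methionase in DMSO at 24 h and 10 with Vps34-IN1.

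Counts over all genes moved by more than 1.5 times in 4 comparisons. Methionase at 12 h called 385 genes, but 178 without the filter, 185 under quantile normalization, 247 without the variance trend, 1561 with only its groups and 18 to 238 with any 1 of its 6 libraries left out. The inhibitor in methionase cells called 1408, but 296 with only its groups and 860 without methionase DMSO replicate 3. Time in empty vector cells called 2039, but 1290 without the filter, 3507 with only its groups, 1028 or 833 without replicate 2 or 3 of the 12 h group, and 798 or 1256 without replicate 1 or 3 of the 24 h group. Methionase with time called 2071, but 1276 without methionase 12 h replicate 1 and 1325 without empty vector 24 h replicate 1. Equal library medians shifted the split of higher and lower genes to 4012 and 3176 for methionase in DMSO at 24 h (3210 and 3745 otherwise), 3738 and 3429 for methionase with Vps34-IN1 (3079 and 3937), 4544 and 2831 for the inhibitor in empty vector (3595 and 3527), 899 and 605 for the inhibitor in methionase (523 and 885), 640 and 1668 for time in empty vector (818 and 1221), 3889 and 3269 for time in methionase (3275 and 3783) and 1431 and 722 for methionase with time (947 and 1124). For the list genes, 120 pairs of a gene and a comparison were followed, and 31 lost a call under 1 or more of the alternatives. HNRNPA2B1 with the inhibitor in empty vector cells was 0.29 and became -0.03 under quantile normalization.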
